A study of Mus musculus with 6 samples.

Results

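Antigen presentation and costimulation in cultured group 2 innate lymphoid cells (ILC2s) were examined at 8 genes: the class II histocompatibility genes H2-Ab1, H2-Aa, H2-Eb1 and H2-DMa, the invariant chain gene Cd74, the class II transactivator gene Ciita, and the costimulatory ligand genes Cd80 and Cd86. The genes were chosen by name from 21883 protein-coding genes on 21 chromosomes. For each gene, the peaks that overlapped its mm10 span plus 2 kb on both sides were taken from the peak list of every library. All 8 genes were found in the annotation, and none was without peaks in all libraries.

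ILC2s sorted from mouse gut, labelled as colon, were grown with the activating cytokines IL-33 and IL-25 and the growth cytokines IL-7 and IL-2, and were sorted again before CUT&Tag, an assay in which a tethered transposase cuts and tags chromatin at the sites an antibody binds. There were 3 groups with 2 libraries each. Cells received FK866, which blocks NAMPT, the enzyme that recycles nicotinamide into NAD, together with succinate, an intermediate of the tricarboxylic acid cycle (FK866 plus succinate). Others received FK866 alone (FK866) or neither agent (Control). All 3 groups shared the 4 cytokines. For the antibody target, the mouse strain and age, the doses and the treatment times nothing is stated in the labels. The labels number the libraries but do not say whether they came from separate animals or cultures, so the p-values reflect the spread among these libraries alone, which may be technical.

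Class II molecules are pairs of an alpha and a beta chain that show peptides from engulfed proteins to CD4+ T cells. The invariant chain fills the groove of a newly made pair, and the H2-DM molecule exchanges its last fragment for a peptide. Transcription of all these genes depends on CIITA, a coactivator that binds no DNA itself and is held at the W, X and Y boxes of class II promoters by the RFX, CREB and NF-Y factors. CD80 and CD86 on the presenting cell engage CD28 or CTLA-4 on the T cell. ILC2s can carry class II molecules and costimulatory ligands, although dendritic cells, macrophages and B cells are the main presenting cells.

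The promoters of the paired chain genes are shown because the peaks described below lie on or away from them. Each sequence is from RefSeq on GRCm38.p6, whose chromosome coordinates are those of mm10, and runs 5′ to 3′ from 250 bases before to 50 bases after an annotated transcript start. Capitals mark matches to 3 motifs searched on both strands: ATTGG, the core of the Y box; AACNGATG, from the core of the X1 box; and TGACGTCA, the cAMP response element that resembles the X2 box. No matches overlapped one another except that TGACGTCA reads the same on both strands. The table held entries for H2-Aa, H2-Eb1, H2-DMa and Cd80 and not for H2-Ab1, Cd74, Ciita or Cd86.
H2-Aa, chr17:34287774-34288073, minus strand: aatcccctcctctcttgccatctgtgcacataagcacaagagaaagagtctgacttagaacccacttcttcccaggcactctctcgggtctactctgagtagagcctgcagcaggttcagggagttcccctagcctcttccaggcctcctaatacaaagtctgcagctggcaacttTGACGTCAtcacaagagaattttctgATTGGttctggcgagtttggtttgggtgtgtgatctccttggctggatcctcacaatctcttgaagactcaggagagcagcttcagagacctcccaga
H2-Eb1, chr17:34305617-34305916, plus strand: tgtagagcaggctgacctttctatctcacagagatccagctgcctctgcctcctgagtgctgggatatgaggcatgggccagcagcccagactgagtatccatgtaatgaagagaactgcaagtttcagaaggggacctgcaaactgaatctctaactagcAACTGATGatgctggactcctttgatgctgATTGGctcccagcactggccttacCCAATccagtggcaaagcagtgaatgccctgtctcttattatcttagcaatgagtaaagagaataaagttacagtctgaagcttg
H2-DMa, chr17:34122582-34122881, plus strand: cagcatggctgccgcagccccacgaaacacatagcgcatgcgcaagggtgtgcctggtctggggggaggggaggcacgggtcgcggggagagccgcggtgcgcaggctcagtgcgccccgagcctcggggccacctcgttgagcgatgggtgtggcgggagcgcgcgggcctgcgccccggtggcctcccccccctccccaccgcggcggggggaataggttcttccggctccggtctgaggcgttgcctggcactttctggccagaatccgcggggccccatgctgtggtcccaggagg

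H2-Aa held TGACGTCA 74 bases and ATTGG 48 bases before its start. H2-Eb1 held AACTGATG 89 bases, ATTGG 59 bases and its reverse complement CCAAT 35 bases before its start. The H2-DMa start shown held none of the 3, its other annotated start at chr17:34125268-34125567 held ATTGG alone, 198 bases before the start, and the Cd80 promoter at chr16:38458683-38458982 held none. Among 32851 promoters of the same length, 37.4% held ATTGG, 2.32% held AACNGATG and 1.79% held TGACGTCA. A match describes letters in the window and does not show that a factor binds there.

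Peaks overlapped these promoters in few cases. The H2-DMa start shown was covered over all 300 bases in each of the 6 libraries, by a peak shared with the neighbouring gene Brd2. The H2-Aa promoter was overlapped only in Control 1, over 247 bases, and the H2-Eb1 promoter in no library. At the Cd80 promoter the overlap was 255 bases in FK866 2 and 161 bases in Control 2, with none in the other 4 libraries.

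The libraries held between 40320 and 56361 peaks, which covered 39.0 to 43.8 Mb. Between 25187 and 28269 peaks per library had an adjusted p under 0.05. FK866 plus succinate 2 stood apart, with the most peaks, the smallest median peak width (528 bp, against 616 to 737 bp in 4 libraries and 618 bp in FK866 plus succinate 1) and the lowest inferred background (1.25 fragments per position, against 1.60 to 2.14 elsewhere). All 10 ILC2 marker genes examined had a peak in all 6 libraries. So had 5 of 8 B cell, 3 of 7 dendritic cell, 3 of 8 macrophage and monocyte, 5 of 7 T cell, 1 of 5 ILC3 and 4 of 5 epithelial cell markers, against 64.1% of all protein-coding genes.

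A pair of values describes each gene in each library. The covered percent is the share of the gene's window that lies under peaks. The percentile of the strongest peak is the rank of its −log10 p among all peaks of the same library, with 100 the strongest. The lists differ in length, and additional weak peaks in a list raise the percentile of every stronger one, so comparisons of percentiles were repeated with each list cut to its 40320 strongest peaks, the length of the shortest. The percentiles given are those of the lists as deposited unless lists of equal length are named. Both measures describe peaks and not transcripts, and in a bulk sample fewer cells carrying the mark and less of it per cell cannot be told apart.

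The 8 genes fell into 3 kinds. H2-DMa and H2-Ab1 were broadly covered in every library, Cd80, H2-Eb1, Ciita and Cd86 had narrower peaks in every library, and H2-Aa and Cd74 had weak peaks in 4 of 6 libraries. In order, the mean covered percent over 6 libraries was 33.4% at H2-DMa, 22.6% at H2-Ab1, 9.14% at Cd80, 7.24% at H2-Eb1, 4.51% at H2-Aa, 3.61% at Cd74, 3.19% at Ciita and 2.496% at Cd86. The ranges over libraries did not overlap between H2-DMa and H2-Ab1 or between H2-Ab1 and Cd80, and every other pair of neighbours in this order overlapped. Over all protein-coding genes the median was 4.08%, and 27.2% of genes had no peak in any library. H2-DMa was covered more than 98.0% of genes and H2-Ab1 more than 93.1%, against 45.8% for Ciita and 42.4% for Cd86. These shares depend on window length, from 9.08 kb at H2-Aa to 101 kb at Cd86. In bases, Cd80 (2907 to 5123 bp per library) was covered more than H2-Ab1 (2202 to 2506 bp). Of the H2-DMa coverage, 5101 to 5893 bp lay in the region that overlaps Brd2 and runs beyond its end, and 1848 to 2535 bp outside that region.

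**Figure D1:**
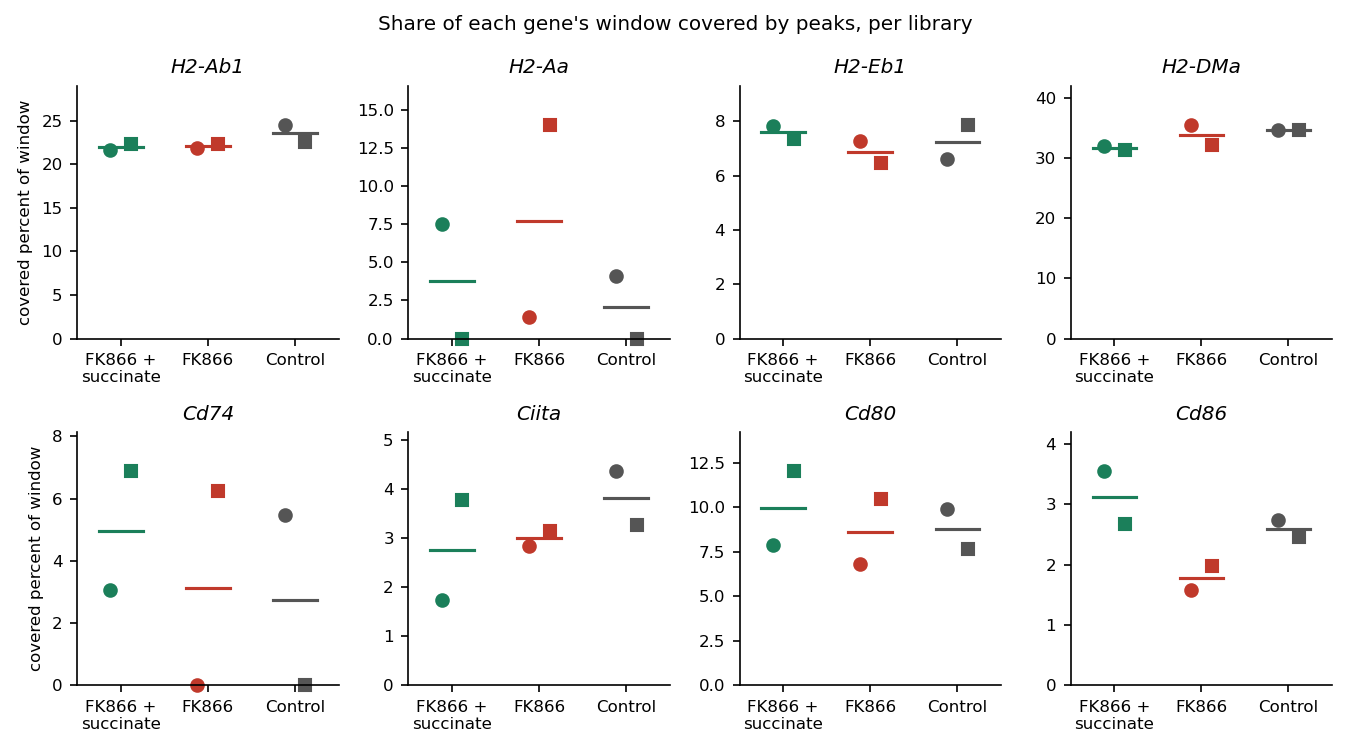
Covered percent of each gene's window (y axis, percent, own scale per gene) in FK866 plus succinate, FK866 and Control. Circles are library 1, squares library 2 and bars group means. H2-DMa lies above 31% and H2-Ab1 above 21% in all 6 libraries, and FK866 is lowest at Cd86.

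H2-Ab1, which encodes the beta chain of the I-A molecule (chr17:34263227-34269418), carried 1 broad peak in every library. The peak began 100 bases outside the lower end of the gene and reached 2.22 kb into it. It was 2202 and 2283 bp wide in FK866 plus succinate, 2230 and 2281 bp in FK866 and 2271 and 2300 bp in Control. Its fold enrichment over background, as given by the authors' peak caller, was 7.16 and 6.83 in FK866 plus succinate, 7.26 and 6.23 in FK866 and 7.18 and 6.94 in Control. Its percentile was 82.5 and 85.9 in FK866 plus succinate, 80.1 and 79.3 in FK866 and 84.2 and 79.3 in Control. No group stood clear of both others in width, fold or percentile in the lists as deposited. With lists of equal length the percentiles were 80.3 and 80.3 in FK866 plus succinate, 80.1 and 77.7 in FK866 and 80.2 and 78.9 in Control, with both FK866 plus succinate values the highest within a spread of under 3 points over all 6 libraries. Control 1 alone had a further peak, of percentile 34.5, beyond the other end of the gene.

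H2-Aa encodes the alpha chain that pairs with the H2-Ab1 product (chr17:34282744-34287823), and had no peak like that of its partner. Its covered length was 680 and 0 bp in FK866 plus succinate, 128 and 1274 bp in FK866 and 373 and 0 bp in Control. The strongest peaks had percentiles of 29.7 in FK866 plus succinate 1, 32.7 and 41.8 in FK866, and 13.7 in Control 1. Each peak rested on between 5 and 8 fragments at its summit, and 1 in FK866 1 and 1 in FK866 2 had an adjusted p under 0.05. Both of those lay at the edge of the window, between 1.54 and 2.21 kb outside the lower end of the gene. FK866 plus succinate 1 had a peak at the same place, of percentile 14.4. Only the peak of Control 1 touched the promoter sequence shown above.

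H2-Eb1 encodes the beta chain of the I-E molecule (chr17:34305867-34316674). Its main peak lay inside the gene, between 3.43 and 4.64 kb from the promoter end, and was present in all 6 libraries. Its percentile was 75.3 and 80.3 in FK866 plus succinate, 68.4 and 74.8 in FK866 and 78.7 and 70.3 in Control. The fold was 9.92 and 8.79 in FK866 plus succinate, 7.30 and 9.22 in FK866 and 10.2 and 8.58 in Control. The groups overlapped in fold. The percentile was higher in both FK866 plus succinate libraries than in both FK866 libraries in the lists as deposited, and overlapped with lists of equal length (72.2 and 72.5 in FK866 plus succinate, 68.4 and 72.8 in FK866). FK866 plus succinate 1 alone had a further weak peak, of percentile 21.8.

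H2-DMa encodes the alpha chain of the peptide exchange molecule H2-DM (chr17:34119693-34139101), and 3 regions of its window had peaks in all 6 libraries. The widest lay over the shared start with Brd2, a chromatin reader gene whose span (chr17:34112019-34122814) overlaps that of H2-DMa. Coverage where the 2 spans overlap cannot be assigned to either gene, and the region runs on beyond the Brd2 end to chr17:34123962. Away from Brd2, the region at 15.6 to 17.4 kb had the higher fold. Its strongest peak had a fold of 9.17 and 8.75 in FK866 plus succinate, 9.91 and 9.59 in FK866 and 8.72 and 8.99 in Control. Both FK866 values lay above the other 4, and how many of all regions have this order was not computed. The region at 8.86 to 10.01 kb had percentiles of 68.3 and 72.5 in FK866 plus succinate, 53.4 and 62.3 in FK866 and 69.7 and 61.9 in Control. The total covered percent was 31.9% and 31.4% in FK866 plus succinate, 35.6% and 32.2% in FK866 and 34.7% and 34.6% in Control, so that both FK866 plus succinate libraries were below the other 4. That order came from the region that overlaps Brd2, where 5101 and 5153 bp were covered in FK866 plus succinate, 5795 and 5679 bp in FK866 and 5737 and 5893 bp in Control. The widest peak there ended beyond Brd2 in every library. Its end lay at 34123077 and 34122996 in FK866 plus succinate, 34123109 and 34123706 in FK866 and 34123726 and 34123910 in Control. FK866 plus succinate 2 and FK866 1 each had a further peak past that end, 479 and 497 bp wide. The part of the order that lies over Brd2 itself was not computed. Outside this region the covered length was 2378 and 2204 bp in FK866 plus succinate, 2535 and 1848 bp in FK866 and 2378 and 2212 bp in Control, and the groups overlapped.

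Cd74, the invariant chain gene (chr18:60803849-60812652), had only weak peaks. It had 1 and 2 peaks in FK866 plus succinate, 0 and 2 in FK866 and 2 and 0 in Control. Their percentiles ran from 3.03 to 42.1 and they rested on 4 to 6 fragments at the summit. None had an adjusted p under 0.05 in any library, and the groups overlapped in covered percent, with 3.05% and 6.89% in FK866 plus succinate, 0% and 6.24% in FK866 and 5.46% and 0% in Control.

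**Figure D2:**
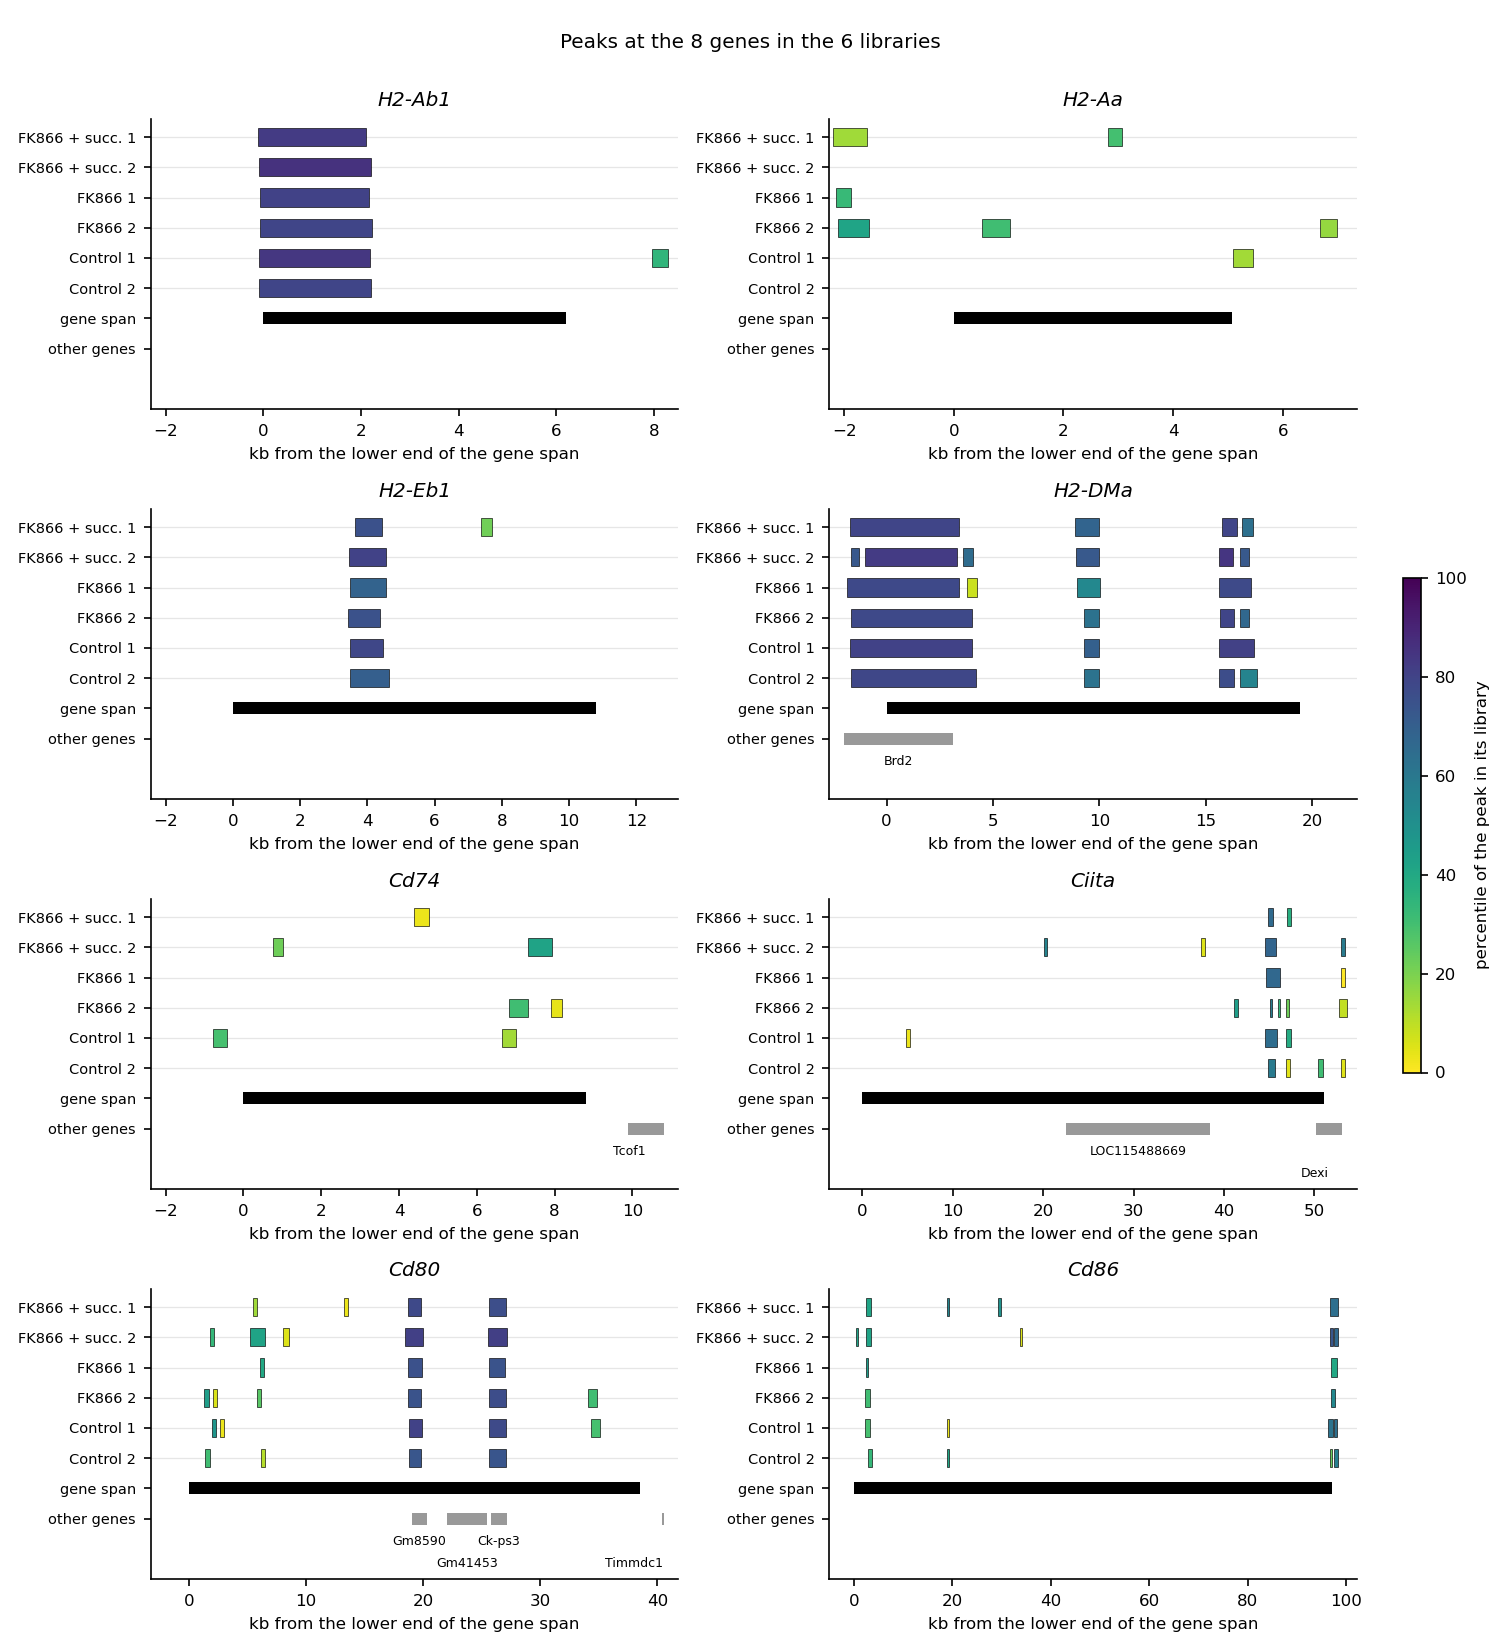
Peaks at the 8 genes by library (rows), placed by distance in kb from the lower end of the gene span (black) and coloured by percentile. Grey bars are other genes in the window. Dark peaks at one place in all 6 libraries appear at H2-Ab1, H2-Eb1, H2-DMa and Cd80, and scattered pale peaks at H2-Aa and Cd74.

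Ciita (chr16:10480014-10531064) had 1 region with a peak in all 6 libraries, inside the gene at 44.5 to 46.2 kb from its lower end. The strongest peak there had a percentile of 66.0 and 67.7 in FK866 plus succinate, 66.6 and 58.2 in FK866 and 64.8 and 59.0 in Control. The fold was 5.43 and 4.001 in FK866 plus succinate, 7.45 and 4.09 in FK866 and 4.34 and 4.78 in Control. The libraries of FK866 and Control overlapped in both values, and FK866 1 had the highest fold of the 6. A neighbouring region at 46.8 to 47.4 kb had weak peaks in 4 libraries. Of the 8 regions in the window, 5 were found in 1 library only, and those near the upper end also overlap the gene Dexi.

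Cd80 (chr16:38457430-38495958), a ligand of CD28 and CTLA-4, had 2 strong regions in all 6 libraries, at 18.5 to 19.99 kb and 25.6 to 27.1 kb. In the region at 18.5 to 19.99 kb the fold was 10.1 and 8.10 in FK866 plus succinate, 11.7 and 9.02 in FK866 and 11.4 and 9.58 in Control. In the region at 25.6 to 27.1 kb it was 7.34 and 7.21 in FK866 plus succinate, 8.82 and 9.01 in FK866 and 7.01 and 7.79 in Control. Both FK866 values in this region lay above the other 4, an order whose share over all regions was not computed. The 2 regions coincide with the annotated pseudogenes Gm8590 and Ck-ps3, where short reads of near-identical copies may be placed wrongly, so these peaks are uncertain as a property of Cd80. The other regions of the window were weak, with percentiles of at most 48.0. Among them, that at 5.21 to 6.46 kb had a peak in 5 libraries and none in Control 1.

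Cd86 (chr16:36568956-36666158), the other ligand of CD28 and CTLA-4, had regions with peaks in all 6 libraries near both ends of the gene. At the upper end, between 96.3 and 98.4 kb, the strongest peak stood on 13 and 12 fragments at its summit in FK866 plus succinate, 9 and 9 in FK866 and 12 and 14 in Control. Its fold was 5.11 and 5.78 in FK866 plus succinate, 3.22 and 3.85 in FK866 and 4.57 and 4.77 in Control. Its percentile was 63.9 and 73.3 in FK866 plus succinate, 40.01 and 53.5 in FK866 and 64.0 and 57.2 in Control. Both FK866 libraries lay below the other 4 in each of these values, and the share of all regions with this order was not computed. At the lower end, between 2.24 and 3.58 kb, percentiles ran from 29.4 to 45.3, with FK866 1 the highest.

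Within Cd86, the region at chr16:36587772-36588314 had a peak in both Control libraries and in neither FK866 library. Its percentile was 54.7 in FK866 plus succinate 1, and 2.76 in Control 1 and 41.4 in Control 2, with 9 fragments at the summit in FK866 plus succinate 1, and 4 and 9 in Control. FK866 plus succinate 2 had no peak there. The covered percent of the whole window was 3.55% and 2.67% in FK866 plus succinate, 1.58% and 1.98% in FK866 and 2.73% and 2.46% in Control. Peaks numbered 4 and 5 in FK866 plus succinate, 2 and 2 in FK866 and 4 and 4 in Control. FK866 was below both other groups with no overlap in covered percent and in peak number. In covered percent, 19.9% of all genes tested were narrower in FK866 than in Control without overlap. Another 17.9%, not exclusive of these, were wider in FK866 plus succinate than in FK866. The share of genes with both orders, and any share for peak number, was not computed. Peak number also depends on whether close peaks were called jointly or apart, as at the upper end.

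**Figure D3:**
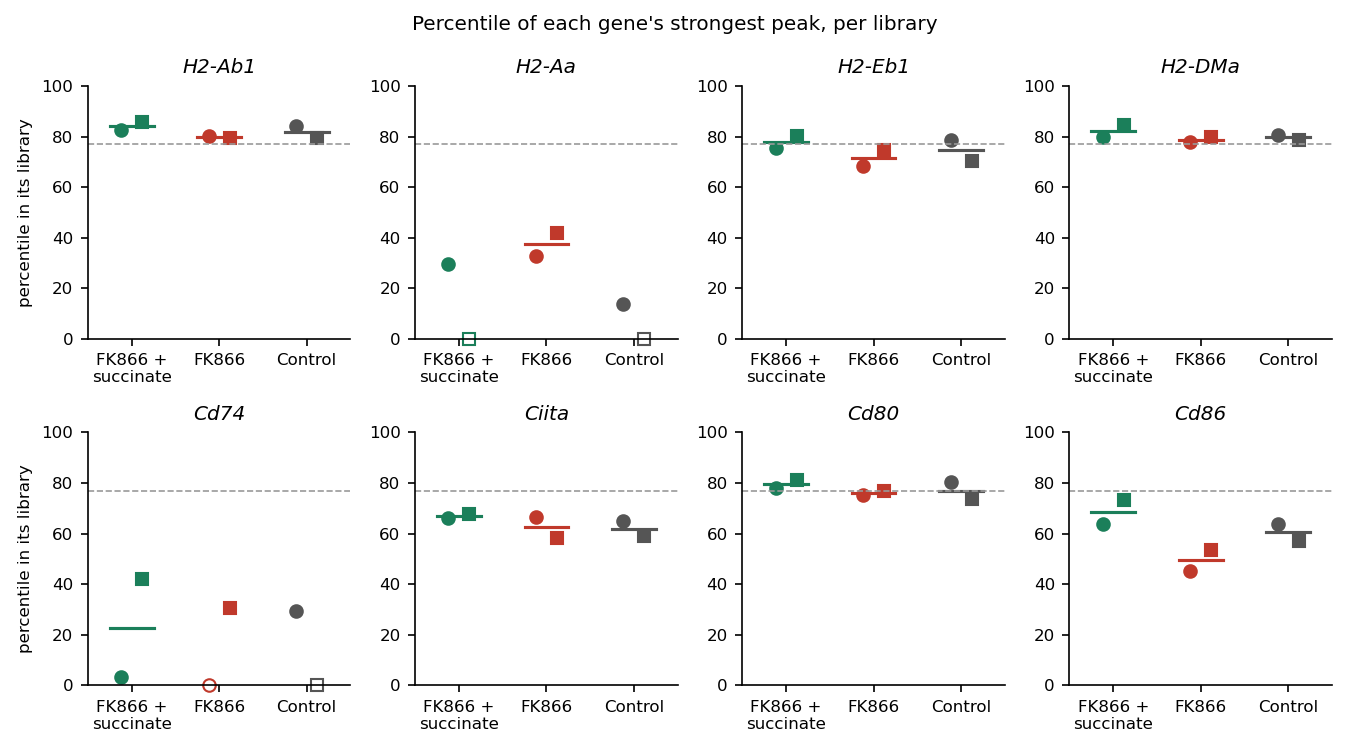
Percentile of the strongest peak of each gene (y axis, 100 the strongest) in FK866 plus succinate, FK866 and Control. Circles are library 1, squares library 2, open symbols libraries with no peak, bars group means of groups with a peak in both libraries, and the dashed line the median of all genes (77.0), from lists of unequal length. Cd86 has 63.9 and 73.3 in FK866 plus succinate, 45.3 and 53.5 in FK866 and 64.0 and 57.2 in Control.

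Across the 8 windows the peaks merged into 39 regions. Of these, 10 (25.6%) were common to all 6 libraries and 20 (51.3%) came from a single library, close to the shares over the whole series (21.7% and 49.5% of 101435 regions). Regions found in 1 library only made up 4 of 5 at H2-Aa, 3 of 4 at Cd74, 5 of 8 at Ciita, 3 of 6 at Cd86, 1 of 2 at both H2-Ab1 and H2-Eb1, 3 of 9 at Cd80 and 0 of 3 at H2-DMa. Peaks in the 8 windows numbered 20 and 24 in FK866 plus succinate, 14 and 24 in FK866 and 21 and 18 in Control, and the groups overlapped. Those with an adjusted p under 0.05 numbered 12 and 15 in FK866 plus succinate, 12 and 13 in FK866 and 11 and 12 in Control.

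FK866 against Control addresses what NAMPT inhibition does to these genes. The means were lower with FK866 at 6 of the 8 genes in covered percent, and at 5 of the 6 genes with a peak in every library in percentile. No gene passed limma's adjusted threshold (0 of 8, against 0.0716% of 15358 genes) in covered percent, and 0 of 6 passed in percentile, against 0.00713% of 14035 genes. The median difference of the 8 genes in covered percent was −0.58 points, against −0.11 over all genes tested. In percentile the median of the 6 genes was −1.51 points, against −1.16 over all genes. With lists of equal length 3 of the 6 means were lower and 3 higher, with a median of 0.09 points, against −0.04 over all genes. None of the 8 had an unadjusted p under 0.05 in either measure, against 4.86% and 3.0% of all genes.

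At Cd86 the covered percent averaged 1.78% ± 0.282 in FK866 and 2.60% ± 0.191 in Control (SD, n = 2 each), a difference of −0.82 points ± 0.377 (SE). Limma gave an unadjusted p of 0.0854 and an adjusted p of 1. Its strongest peak averaged a percentile of 49.4 ± 5.79 in FK866 and 60.6 ± 4.79 in Control, a difference of −11.2 points ± 5.78 with a limma adjusted p of 0.999. The strongest peak of FK866 1 was that of the lower end of the gene and that of the other 5 libraries the upper end, so this mean joins different sites. In a window around the upper site alone the difference was −13.8 points, with lists of equal length −8.08 points and with the gene span alone −2.29 points (limma adjusted p of 0.999, 1 and 1). At H2-Aa the covered percent averaged 7.72% ± 8.92 in FK866 and 2.05% ± 2.90 in Control, and the difference of 5.67 points ± 5.03 was smaller than the spread between the FK866 libraries (limma adjusted p = 1). The groups did not overlap at 3 of the 8 genes, H2-Ab1, Ciita and Cd86, each narrower in FK866, against 19.9% of all genes tested that were narrower without overlap. None of the 8 was wider without overlap, against 12.8% of all genes. In percentile only Cd86 was lower without overlap (1 of 6), against 23.1% of all genes, and none was higher, against 5.46%. With lists of equal length it was again Cd86 alone that was lower (1 of 6), against 16.6% of all genes, and none was higher, against 15.3%.

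No gene of the 8 gained or lost all its peaks with FK866, while 25 genes gained them (0.114% of 21883) and 115 lost them (0.526%). Of the 39 regions, 1 was gained, at the edge of the H2-Aa window, against 1.4% of all regions, and 1 was lost, the internal Cd86 region, against 2.04%. The Cd86 loss was absent when only peaks with an adjusted p under 0.05 were counted and with lists of equal length.

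FK866 plus succinate against FK866 addresses whether added succinate changes the picture under the inhibitor. In the lists as deposited the percentile was higher in FK866 plus succinate in the means of all 6 genes tested, with a median difference of 4.46 points, against 2.34 points over all 14035 genes, and higher without overlap at 5 of the 6, against 41.9% of all genes. Those lists held 45446 and 56361 peaks in FK866 plus succinate and 40320 and 43468 in FK866. With lists of equal length only 3 of the 6 means were higher (H2-Ab1, H2-Eb1 and Cd86), with a median of 0.62 points, against −0.07 over all 13885 genes. H2-Ab1 and Cd86 were then higher without overlap (2 of 6), against 17.5% of all genes, and none was lower, against 20.4%. Limma called 0 of 6 genes in percentile, against 0.057% of all genes, and 0 of 8 in covered percent, against 0.0716%, and 1 of the 8, Cd86, had an unadjusted p under 0.05. The median difference in covered percent was 0.30 points for the 8 genes and −0.01 over all genes.

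Cd86 differed most among the 8 genes in percentile. Its strongest peak averaged 68.6 ± 6.66 in FK866 plus succinate and 49.4 ± 5.79 in FK866 (SD, n = 2 each), a difference of 19.2 points ± 5.78 (SE), or 16.9 points beyond the median of all genes. The unadjusted limma p was 0.00226 and the adjusted p 0.360. With lists of equal length the percentile was 59.3 and 62.7 in FK866 plus succinate, 45.3 and 49.8 in FK866 and 54.9 and 56.4 in Control. The difference between FK866 plus succinate and FK866 was then 13.4 points, with a limma adjusted p of 0.201. Its covered percent averaged 3.11% ± 0.621 in FK866 plus succinate and 1.78% ± 0.282 in FK866, a difference of 1.34 points ± 0.377 with an unadjusted p of 0.0187 and a limma adjusted p of 0.479. With peaks of adjusted p under 0.05 only, this difference was 0.655 points (unadjusted p of 0.285, limma adjusted p of 0.703). Unadjusted p-values under 0.05 were found for 9.11% of genes in percentile and 8.63% in covered percent. Cd86 and H2-Eb1 were wider without overlap (2 of 8, against 17.9% of all genes) and H2-DMa narrower (1 of 8, against 21.8%). No gene was lower in percentile without overlap, against 5.06% of all genes. None of the 8 gained or lost all its peaks, against 0.658% and 0.315% of all genes, and none of the 39 regions was gained or lost, against 2.76% and 1.68% of all regions.

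FK866 was lowest at Cd86 in both of these comparisons, which share the FK866 libraries and are not independent. The summed coverage of 8 B cell markers was also lowest in FK866, without overlap. It was 46.7 to 47.3 percentage points in FK866 plus succinate, 39.0 to 43.3 in FK866 and 48.0 to 61.8 in Control. For 7 dendritic cell markers the sums were 37.1 to 39.5 in FK866 plus succinate, 34.2 to 36.6 in FK866 and 36.1 to 38.7 in Control. For 8 macrophage and monocyte markers they were 64.2 to 73.8 in FK866 plus succinate, 63.2 to 67.6 in FK866 and 67.5 to 74.5 in Control, and in both lists FK866 overlapped Control. For 10 ILC2 markers FK866 was the highest without overlap, with 213 to 231 in FK866 plus succinate, 241 to 243 in FK866 and 237.7 to 238.2 in Control. T cell markers had 44.3 to 62.6 in FK866 plus succinate, 58.1 to 76.1 in FK866 and 49.96 to 62.2 in Control. ILC3 markers had 7.97 to 12.04 in FK866 plus succinate, 4.53 to 4.77 in FK866 and 3.53 to 8.84 in Control. Epithelial cell markers had 26.9 to 30.8 in FK866 plus succinate, 25.01 to 29.7 in FK866 and 32.5 to 41.7 in Control. Among the defining markers of these types, Ms4a1, Blnk, Siglech, Clec9a and Adgre1 had no peak in any library. Peaks at Cd22, which encodes a B cell surface lectin, were gained with succinate, as were those of 0.658% of all genes. They were weak, with percentiles of 14.4 and 5.18, and Control 2 had one of 11.1. Those at the macrophage lysozyme gene Lyz2 were lost with FK866, against 0.526% of all genes. Their percentiles in Control were 13.7 and 23.2. The part of such cells in the Cd86 difference was not tested.

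FK866 plus succinate against Control compares cells that received both agents with untreated cells. H2-DMa averaged 31.7% ± 0.369 in FK866 plus succinate and 34.6% ± 0.0302 in Control in covered percent (SD, n = 2 each), a difference of −2.96 points ± 1.34 (SE) with a limma adjusted p of 0.612. This difference lay in the region described above, which overlaps Brd2 and runs beyond its end. The part of it over Brd2 itself was not computed, and coverage there cannot be assigned to H2-DMa. H2-DMa and H2-Ab1 were narrower without overlap (2 of 8), against 24.5% of all genes tested, and none was wider, against 13.4%. Ciita alone was higher in percentile without overlap (1 of 6), against 20.9% of all genes, and none was lower, against 7.37%. With lists of equal length Ciita overlapped, and H2-Ab1 and Cd86 were higher (2 of 6), against 18.7% of all genes, with none lower, against 21.6%. At Cd86 the percentile averaged 68.6 ± 6.66 in FK866 plus succinate and 60.6 ± 4.79 in Control, a difference of 8.03 points ± 5.78 with a limma adjusted p of 0.983. Limma called 0 of 8 genes in covered percent, against 0.156% of all genes, and 0 of 6 in percentile, against 0.0499%, and 0 had an unadjusted p under 0.05, against 9.29% and 4.93% of all genes. No gene of the 8 gained or lost all its peaks, against 0.334% and 0.512% of all genes, and none of the 39 regions was gained or lost, against 2.44% and 2.06% of all regions.

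**Figure D4:**
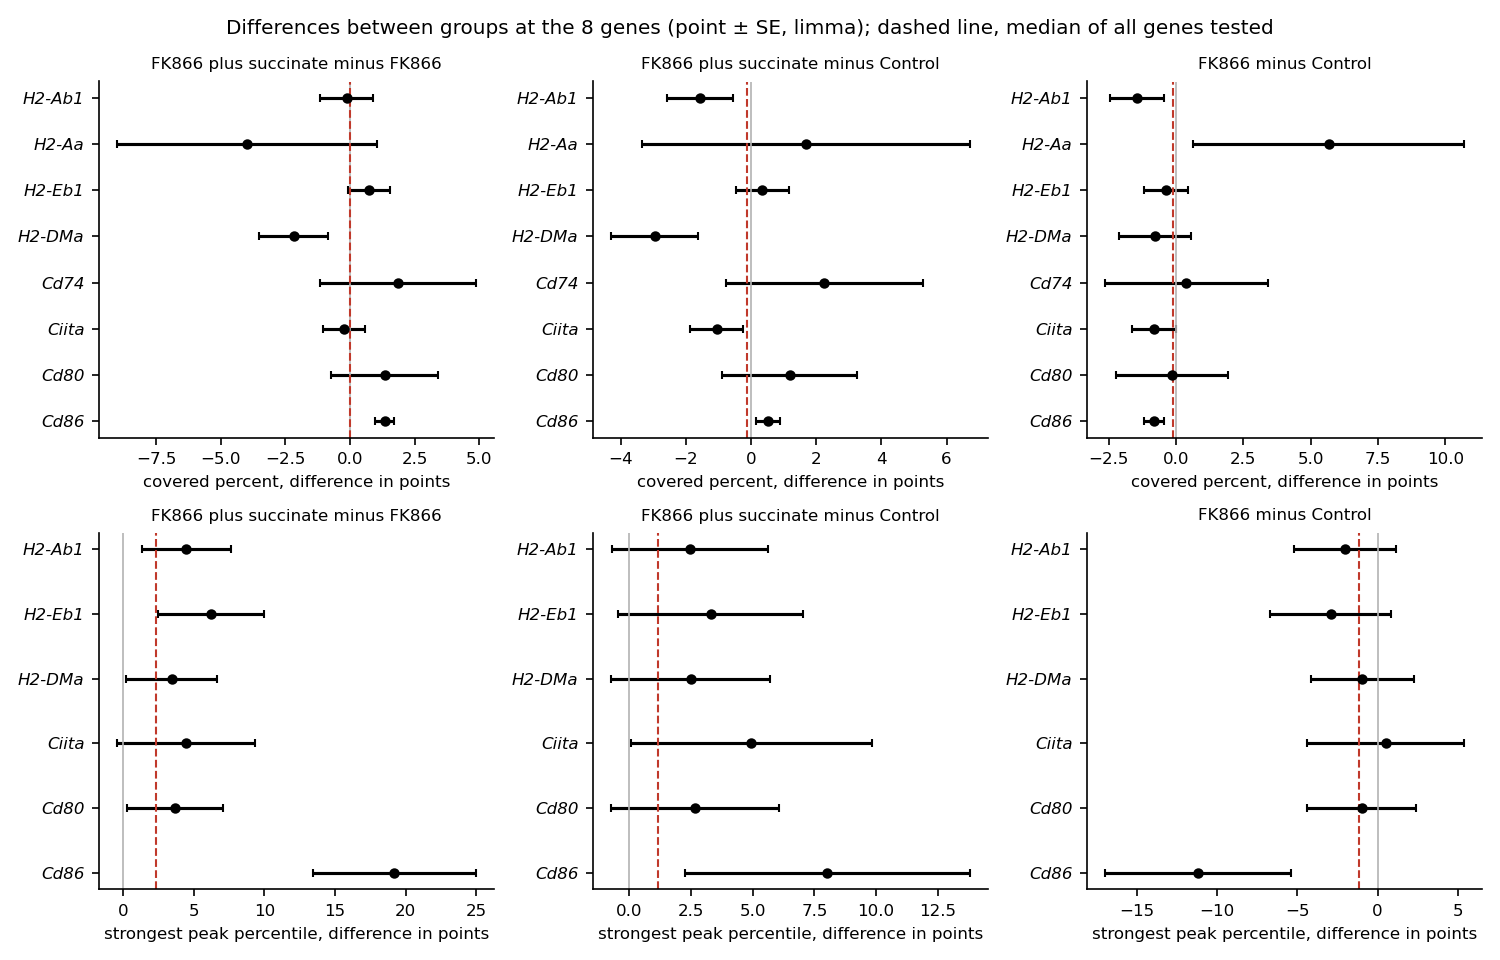
Differences between groups at the 8 genes in covered percent (upper row) and percentile of the strongest peak (lower row, lists of unequal length), in points, with SE from limma. The dashed line is the median of all genes tested. Cd86 lies furthest from it in percentile, at 19.2 points for FK866 plus succinate minus FK866 and −11.2 points for FK866 minus Control.

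In data simulated for FK866 minus Control, limma recovered 142 of 200 genes changed by 10 points in covered percent and called 11 of the unchanged genes. A drop of 10 points cannot occur at a gene covered by less, as Cd86 (2.496%) and Ciita (3.19%) were. The recovery therefore does not show what could be detected at such genes. The differences reported for FK866 minus Control were smaller than 10 points at all 8 genes, with that at H2-Aa at 5.67 points, 10.6 points with the window around its strongest site and 11.98 points without FK866 1.

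The genes that act around these 8 were described from 6 lists, and limma called none of their genes in any comparison. An unadjusted p under 0.05 was found for 0 to 3 genes per list, measure and comparison. Class II promoter factors had the strongest peaks. All 7 (Rfx5, Rfxap, Rfxank, Nfya, Nfyb, Nfyc and Creb1) had a peak in every library, with a median percentile of 91.2 against 69.2 at the 8 genes and 77.0 over all genes. The interferon gamma route that induces Ciita had peaks in every library at 6 of 6 genes, with a median percentile of 82.7, among them its receptor chains, the kinases Jak1 and Jak2 and the factor Irf1. In class I presentation, which shows internal peptides to CD8+ T cells, 9 of 9 genes had peaks in every library, with a median percentile of 85.5 and a median covered percent of 26.4%, against 5.87% at the 8 genes. These are descriptions of the lists, not tests between them.

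Other class II presentation genes were uneven. Of the 13 listed, 12 were matched, 10 had a peak in every library, and H2-Eb2 and Marchf1, a ubiquitin ligase of class II molecules, had none. Their median percentile was 67.5. Their summed coverage was 104 to 114 percentage points in FK866 plus succinate, 86.5 to 96.3 in FK866 and 98.3 to 109 in Control, with FK866 below both other groups. The order against Control rested on H2-DMb2, with 5.70% and 10.6% in FK866 and 19.1% and 15.4% in Control. Without H2-DMb2 the sums of FK866 and Control overlapped. The comparison of FK866 with Control had 5 of the 10 genes tested wider and 5 narrower, and that of FK866 plus succinate with FK866 had 7 wider and 3 narrower.

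Among 10 other costimulatory ligands, 6 had a peak in every library, and Tnfsf18 and Vtcn1 had none. Tnfsf4 encodes OX40L, through which ILC2s act on T cells, and its covered percent was 1.51% and 2.33% in FK866 plus succinate, 0% and 0% in FK866 and 1.54% and 1.10% in Control. Its peaks were thus lost with FK866 and gained with added succinate by the rule for whole genes, against 0.526% and 0.658% of all genes. The strongest of them had percentiles of 60.4 and 55.2 in FK866 plus succinate and 42.2 and 33.6 in Control. Cd70 had peaks only in FK866 plus succinate 2 and FK866 2. Cd28 and Ctla4, the receptors of the Cd80 and Cd86 products, had peaks in every library, with mean percentiles of 61.8 and 73.6.

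**Figure D5:**
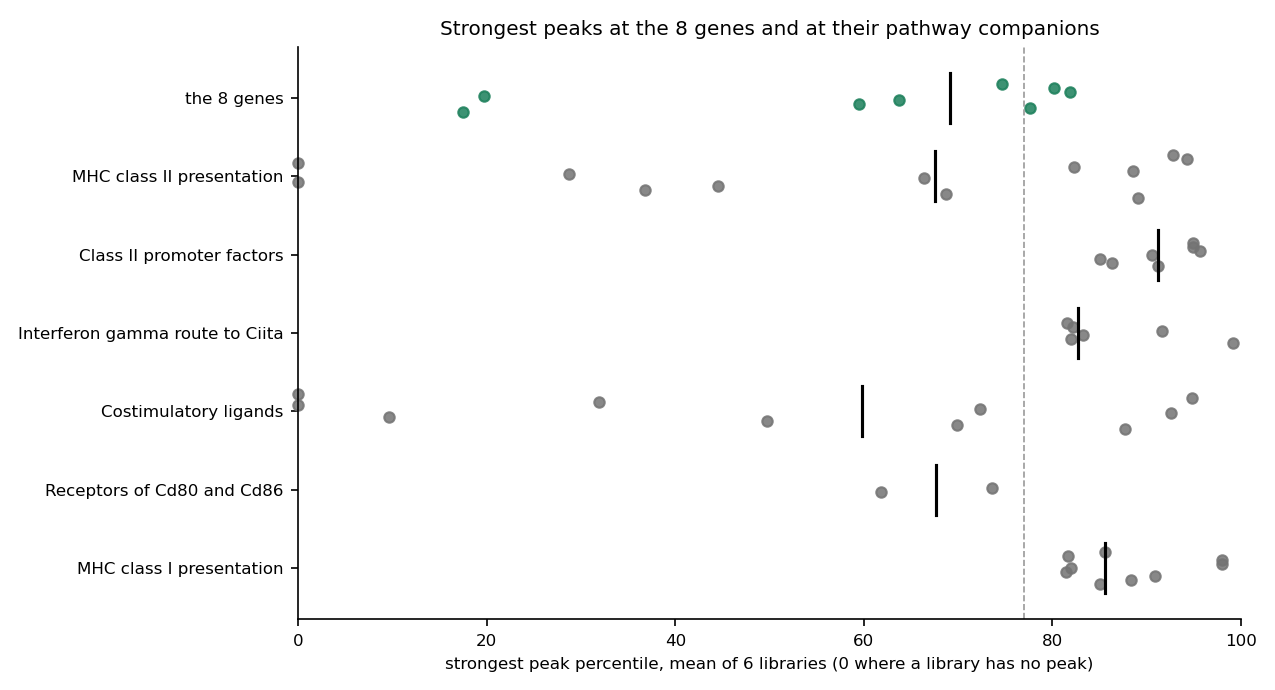
Percentile of the strongest peak, averaged over the 6 libraries with 0 where a library had no peak (x axis), for each gene (points) of the 8 genes and 6 companion lists (rows). Black ticks are list medians and the dashed line is the median of all genes. Promoter factors have a median of 91.2 and the 8 genes one of 69.2.

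The companion gene whose covered percent tracked each gene most closely over the 6 libraries was picked from 42. It was Rfx5 for H2-Ab1 (Pearson r = 0.9204), Nfya for H2-Aa (0.846), Marchf8 for H2-Eb1 (0.857) and Jak1 for H2-DMa (0.848). For Cd74 it was Psmb9 (0.913), for Ciita Ctla4 (0.905), for Cd80 Ifi30 (0.955) and for Cd86 Nfyc (0.846). These are descriptions over 6 libraries, and the differences in depth and peak number between libraries enter both genes of a pair. Picking the highest of 42 raises each r, and the level reached by unrelated genes was not computed.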

How the data were processed

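CUT&Tag was measured in 6 libraries of 3 groups. The submitters' processing notes name cutadapt 1.9, Bowtie2 2.5.0 and the build mm10. The program that called the peaks, its settings and any pooling were not given in the sources used here. Deposited lists are headerless, with 10 columns. From this layout and the values, the columns used hold a score (about 10 times the −log10 p), a fold ratio over background, the −log10 p and the −log10 adjusted p, all as deposited by the authors. Every deposited peak has a p under 0.05, and peaks outside the 21 chromosomes (43 to 55 in each library) were dropped.

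Gene spans came from RefSeq for GRCm38.p6. Peaks were intersected with spans plus 2 kb, and regions are the union of overlapping peaks of all libraries. Genes with a peak in at least 2 libraries (15358) were tested in covered percent, and genes with a peak in all 6 (14035) in percentile, with limma 3.58.1 in R 4.3.3 (lmFit, eBayes with trend, no scaling, all 6 libraries in 1 fit) and Benjamini-Hochberg adjustment over all genes at 0.05. All 3 comparisons share libraries. A gene or region was lost or gained when both libraries of a group had a peak and neither of the other did. Fragments at a summit were inferred from the steps of the fold column, which 27.8% to 44.2% of peaks follow, and the Poisson p computed from them matched the deposited −log10 p for at least 99.0% of those. The fit was tested on simulated data.

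The 8 genes and the companion lists were chosen with earlier results of these data known. For 1 companion gene results are not reported here, and it is left out of its list. All 8 are named, and of the companions those lost, gained or without any peak, those most correlated with a member, and others as examples. Alternatives covered the peak filter and equal list lengths (percentiles ranked anew among the peaks kept), window size, normalization, scale, filter, a replicate block and leaving out each library. The window around each gene's strongest site, and the counts of lost and gained regions, were added after seeing the data.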

Additional observations from a re-analysis of the deposited data

How the results depend on the processing

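No result at the 8 genes passed limma's adjusted threshold under any of the alternatives run (0 of 633 values, smallest adjusted p 0.161, at Cd86 for FK866 plus succinate minus FK866 without Control 1). Counts over all genes moved more. For FK866 minus Control, 11 genes called in covered percent became 3 with the gene span alone, 5 with quantile normalization and 0 with the lead-site window, the replicate block or the log2 scale. For FK866 plus succinate minus FK866, 11 became 19 with peaks of adjusted p under 0.05 and with the span alone, 4 with 5 kb on both sides and 0 with the lead-site window, the block or log2. For FK866 plus succinate minus Control, 24 became 48 with peaks of adjusted p under 0.05 and 0 with the lead-site window, the block or log2. In percentile, 1 gene for FK866 minus Control became 2 with peaks of adjusted p under 0.05, equal lists, the span alone or quantile normalization and 5 with the block. For FK866 plus succinate minus FK866, 8 became 5 with the span alone, 1 with 5 kb, 0 with the lead-site window, 4 with quantile normalization and 17 with the block. For FK866 plus succinate minus Control, 7 became 16 with peaks of adjusted p under 0.05, 2 with the span alone, 3 with 5 kb, 1 with the lead-site window and 13 with the block. The labels do not say whether libraries of the same number are paired. Their deviations from the group means were nearly uncorrelated (r of 0.00652, 0.022 and -0.0586 over 15358 genes), which does not settle it. The cause of these moves was not tested.

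With peaks of adjusted p under 0.05, the 115 genes that lost all peaks with FK866 became 75, and the 25 that gained them became 39, or 41 with equal lists. For FK866 plus succinate minus FK866, 69 lost became 179 and 131, and 144 gained became 54 and 83, with that filter and with equal lists. For FK866 plus succinate minus Control, 112 lost became 228 and 73 gained became 41 with peaks of adjusted p under 0.05. Of the regions in the 8 windows, the 1 lost with FK866 became 0 under both settings, and 1, that of H2-Aa, was lost with succinate when peaks of adjusted p under 0.05 were counted. With that filter, equal lists or the lead-site window, H2-Aa counts as a gene gained with FK866, as it does without Control 1. H2-Aa counts as lost with succinate under that filter and without FK866 plus succinate 1. Cd74 counts as gained with succinate without FK866 2, and against Control without Control 1.

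Differences whose sign turned, in points: with peaks of adjusted p under 0.05, covered percent at Ciita became 0.0845, 0.0327 and 0.117 (FK866 minus Control, FK866 plus succinate minus FK866, FK866 plus succinate minus Control), at Cd80 0.456 and -0.236 in the first 2, and at H2-Eb1 -0.385 and -0.763 in the last 2. With the lead-site window it became 1.2 at Cd80 for FK866 minus Control, 0.775 at H2-Ab1, -1.43 at H2-Eb1 and -2.13 at Cd74 for FK866 plus succinate minus FK866, and 0.237 at H2-Ab1 and -2.83 at H2-Eb1 for FK866 plus succinate minus Control. With quantile normalization it became 0.0106 at H2-Eb1 and 0.263 at Cd80 for FK866 minus Control, and 1.15 at H2-Ab1 for FK866 plus succinate minus FK866. With quantile normalization the percentile became 0.798 at H2-DMa and 0.779 at Cd80 for FK866 minus Control, and -0.0578 at H2-DMa, -1.08 at Ciita and -0.383 at Cd80 for FK866 plus succinate minus FK866. With 5 kb it became 0.389, -1.60 and -1.21 at Cd80 in the 3 comparisons. With equal lists, ranked anew, the percentile became 0.866 at H2-DMa and 0.815 at Cd80 for FK866 minus Control, and -0.117 at H2-DMa, -2.51 at Ciita and -0.537 at Cd80 for FK866 plus succinate minus FK866. Ranked among peaks of adjusted p under 0.05 it became 1.09 at H2-DMa and 0.922 at Cd80 for FK866 minus Control, -0.00745 at H2-Eb1, -2.15 at H2-DMa, -6.94 at Ciita and -2.97 at Cd80 for FK866 plus succinate minus FK866, and -0.876 at H2-Ab1, -1.66 at H2-Eb1, -1.06 at H2-DMa, -2.17 at Ciita and -2.05 at Cd80 for FK866 plus succinate minus Control. Cd86 kept its direction for FK866 against Control and for added succinate in the alternatives run, with sizes that moved. Its covered percent difference with peaks of adjusted p under 0.05 was -0.521 for FK866 minus Control and 0.655 for FK866 plus succinate minus FK866, and quantile normalization left the comparison with added succinate at an unadjusted p of 0.0748.

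Leaving out 1 library at a time, the spread of a lone library was taken from the other groups, and the rule for lost and gained is looser by construction. The ranges for FK866 minus Control were 0 genes called in covered percent, 2 to 8 genes called in percentile, 182 to 450 genes lost, 65 to 134 genes gained, 1 to 6 regions of the 8 windows lost, 1 to 5 such regions gained. The ranges for FK866 plus succinate minus FK866 were 0 genes called in covered percent, 16 to 45 genes called in percentile, 142 to 212 genes lost, 269 to 492 genes gained, 0 to 6 regions of the 8 windows lost, 0 to 6 such regions gained. The ranges for FK866 plus succinate minus Control were 0 genes called in covered percent, 6 to 64 genes called in percentile, 184 to 333 genes lost, 130 to 342 genes gained, 0 to 6 regions of the 8 windows lost, 0 to 6 such regions gained. In covered percent, sign-changing ranges for FK866 minus Control were -0.644 to 12 at H2-Aa, -1.02 to 0.26 at H2-Eb1, -2.49 to 0.94 at H2-DMa, -2.73 to 3.51 at Cd74, -1.96 to 1.66 at Cd80. In covered percent, sign-changing ranges for FK866 plus succinate minus FK866 were -10.3 to 2.33 at H2-Aa, -0.525 to 0.27 at H2-Ab1, -1.27 to 4.97 at Cd74, -1.27 to 0.778 at Ciita, -0.734 to 3.4 at Cd80. In covered percent, sign-changing ranges for FK866 plus succinate minus Control were -2.05 to 5.44 at H2-Aa, -0.29 to 0.986 at H2-Eb1, -0.488 to 4.97 at Cd74, -0.884 to 3.25 at Cd80. In percentile, sign-changing ranges for FK866 minus Control were -4.45 to 0.425 at H2-Ab1, -7.14 to 1.29 at H2-Eb1, -2.05 to 0.148 at H2-DMa, -3.69 to 4.69 at Ciita, -4.22 to 2.21 at Cd80. In percentile, sign-changing ranges for FK866 plus succinate minus Control were -0.922 to 7.5 at H2-Eb1, -0.555 to 5.88 at Cd80.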
